A study of Mus musculus with 12 samples.

Results

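The genes described here are the metal-handling genes Mt1, Mt2, Mtf1, Slc39a14, Slc30a1 and Slc30a10, taken by symbol from a table of 37141 genes counted in mouse hepatocytes after loss of Yap and Taz and after chemical liver injury. They are 6 of the 37141 rows, and all 6 were among the 10780 genes that passed the filter on low counts. The set was proposed with the counts of all 4 groups known, so these genes were chosen by values that include the ones given below. Their levels and fold changes are therefore a description, with no p-value. Where a call of any of these genes is mentioned, it describes that fit only, and nothing is read from it.

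Metallothioneins are small cysteine-rich proteins that bind zinc and copper, and the liver makes large amounts of Mt1 and Mt2 under metal load, glucocorticoids and inflammation. Free zinc is sensed by the zinc finger transcription factor MTF1, which binds metal response elements in the promoters of both metallothioneins and of the zinc exporter gene Slc30a1. Slc39a14 encodes ZIP14, a plasma membrane importer of zinc, manganese and iron in hepatocytes, and Slc30a10 encodes a manganese exporter of the liver and bile pathway that belongs to the zinc exporter family.

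Each of the 4 groups held 3 libraries, every one from hepatocytes sorted by flow cytometry from perfused livers, with 500000 cells per library. All animals carried floxed alleles of both genes (Yapflox/flox; Tazflox/flox), in the controls too. The ctrl group had no listed treatment, and ctrl + CCl4 animals received carbon tetrachloride, a hepatotoxin, at 1 ml/kg in corn oil 48 hours before collection. The Yap/Taz KO group received AAV8 carrying Cre recombinase under the hepatocyte TBG promoter 3 weeks before collection. The Yap/Taz KO + CCl4 group received the virus 3 weeks before CCl4 and was collected 48 hours after CCl4. The labels name neither a control virus for the ctrl groups nor an oil injection for the uninjured groups, so virus and deletion, and CCl4 and its vehicle, cannot be told apart. No age is given for the animals in these sources. The labels do not state that replicates are separate animals, so the tests below measure the spread between these libraries, which may be technical.

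Libraries held 1617761 to 3028951 counts. Levels are given as CPM (each gene's counts scaled to a common library size) after TMM scaling, a correction that assumes most genes do not change. Scaling by library totals instead raised the median log2 fold change of all genes by 0.36 to 0.37 in both injury comparisons and moved it by -0.14 in both knockout comparisons. Yap1 lay between 40.3 and 71.8 CPM in the 6 control libraries and between 9.65 and 22.2 CPM in the 6 knockout libraries. Wwtr1, which encodes TAZ, lay between 24.2 and 57.6 CPM in the former and between 10.1 and 25.3 CPM in the latter, so its ranges overlapped. The labels do not name the deleted exons, so 3' tags may lie outside them. The summed level of 10 hepatocyte markers ranged from 100410 to 142300 CPM in uninjured libraries and from 48484 to 88614 CPM in injured ones. Most of that sum was Alb, at 59511 to 96972 CPM in uninjured and 31166 to 58595 CPM in injured libraries. The summed level of 10 macrophage markers ranged from 217 to 2426 CPM in uninjured and from 1797 to 4009 CPM in injured libraries. The ctrl replicate 1 library stood apart from its group, with the highest macrophage, endothelial and stellate marker sums of the 6 uninjured libraries. Its erythroid marker sum of 1583 CPM compared with 19.6 to 154 CPM in the other 11 libraries. In bulk RNA, fewer cells of a type and less RNA per cell cannot be told apart.

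In GENCODE M21 on GRCm38, both metallothionein genes lie on the plus strand of chromosome 8, with Mt2 at chr8:94172664-94173568 and Mt1 at chr8:94179082-94180327. The gap between them is 5513 bases. Mtf1 lies at chr4:124802104-124849800 on the plus strand, Slc39a14 at chr14:70303469-70351425 on the minus strand, Slc30a1 at chr1:191906767-191913247 on the plus strand and Slc30a10 at chr1:185454848-185468762 on the plus strand. The annotation places an antisense or opposite-strand gene over part of Mt2, Mtf1, Slc30a1 and Slc30a10, and no source used here states whether the counting used strand, so reads of such partners could be included. The longest annotated protein-coding transcripts of Mt1 and Mt2, of 1085 and 511 bases, share no identical run longer than 20 bases. Within their last 150 bases, the end from which this assay takes its tags, none is longer than 10 bases. Other transcripts of these genes were not compared.

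The promoters of the metallothionein pair, whose levels moved together across libraries, and of the exporters Slc30a1 and Slc30a10 are shown because metal response elements lie at the centre of this gene set. Each sequence holds the 250 bases before the gene's RefSeq start on GRCm38.p6, read on the plus strand, and the capitals mark matches to the core of the metal response element, TGCACNC or TGCGCNC, on either strand. RefSeq and GENCODE starts differ for Mt1, Mt2, Slc30a1 and Mtf1. The windows are chr8:94178839-94179088 for Mt1, chr8:94172368-94172617 for Mt2, chr1:191906531-191906780 for Slc30a1 and chr1:185454598-185454847 for Slc30a10.
Mt1: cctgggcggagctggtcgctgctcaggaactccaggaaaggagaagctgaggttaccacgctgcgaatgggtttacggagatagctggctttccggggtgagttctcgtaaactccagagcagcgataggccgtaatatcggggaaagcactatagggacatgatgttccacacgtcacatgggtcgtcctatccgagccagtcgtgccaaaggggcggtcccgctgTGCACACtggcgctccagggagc
Mt2: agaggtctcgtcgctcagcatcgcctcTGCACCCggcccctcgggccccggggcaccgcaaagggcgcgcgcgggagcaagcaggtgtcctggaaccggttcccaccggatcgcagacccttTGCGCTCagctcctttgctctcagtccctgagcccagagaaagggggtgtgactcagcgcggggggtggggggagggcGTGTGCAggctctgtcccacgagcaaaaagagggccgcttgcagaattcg
Slc30a1: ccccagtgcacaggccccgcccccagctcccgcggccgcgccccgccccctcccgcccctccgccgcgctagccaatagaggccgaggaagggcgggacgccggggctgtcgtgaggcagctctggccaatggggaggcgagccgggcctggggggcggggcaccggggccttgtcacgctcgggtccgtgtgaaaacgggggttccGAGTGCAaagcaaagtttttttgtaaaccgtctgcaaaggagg
Slc30a10: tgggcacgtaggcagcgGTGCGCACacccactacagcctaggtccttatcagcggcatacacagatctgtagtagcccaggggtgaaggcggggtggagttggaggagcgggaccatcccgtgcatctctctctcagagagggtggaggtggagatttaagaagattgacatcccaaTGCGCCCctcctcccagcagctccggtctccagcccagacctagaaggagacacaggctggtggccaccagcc

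Mt2 held 3 matches in this window and Mt1 held 1, and counting the first 50 bases after the RefSeq start brought them to 4 and 3, and Slc30a1 to 2. Slc30a10 held 3 matches, 2 of which overlap each other on opposite strands in a palindromic stretch, and Slc30a1 held 1. The Mtf1 window, chr4:124802299-124802548, held none and lies inside the gene as GENCODE places it. Of 32851 RefSeq promoters of the same length, 21.4% held at least 1 match and 1.26% held at least 3. With the 50 further bases 1.97% held at least 3 and 0.517% at least 4. A match describes the letters and was not tested as a binding site. Bases further from the annotated start were not searched, so the counts describe these windows and not whole promoters. Slc39a14 has no promoter entry in the table used.

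Mt1 and Mt2, the metal-binding proteins of the set, were the most variable of these genes between libraries of ctrl and of ctrl + CCl4. Mt1 was at 2304, 252 and 1171 CPM in the ctrl libraries, at 764, 2176 and 711 CPM in ctrl + CCl4, at 780, 677 and 522 CPM in Yap/Taz KO and at 695, 930 and 1134 CPM in Yap/Taz KO + CCl4. Mt2 was at 1463, 56.9 and 694 CPM in ctrl, at 319, 979 and 284 CPM in ctrl + CCl4, at 207, 222 and 145 CPM in Yap/Taz KO and at 225, 411 and 510 CPM in Yap/Taz KO + CCl4. Both the highest and the lowest value of each gene came from the ctrl group, so that group's range enclosed all 9 other libraries. The highest ctrl library exceeded the lowest 9.15-fold for Mt1 and 25.7-fold for Mt2, against 1.5-fold and 1.53-fold in Yap/Taz KO. Together the pair took 0.0290% of all counts in ctrl replicate 2 (95% exact binomial interval 0.0267 to 0.0313) and 0.358% in ctrl replicate 1 (0.351 to 0.365). The intervals cover counting error only.

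**Figure D1:**
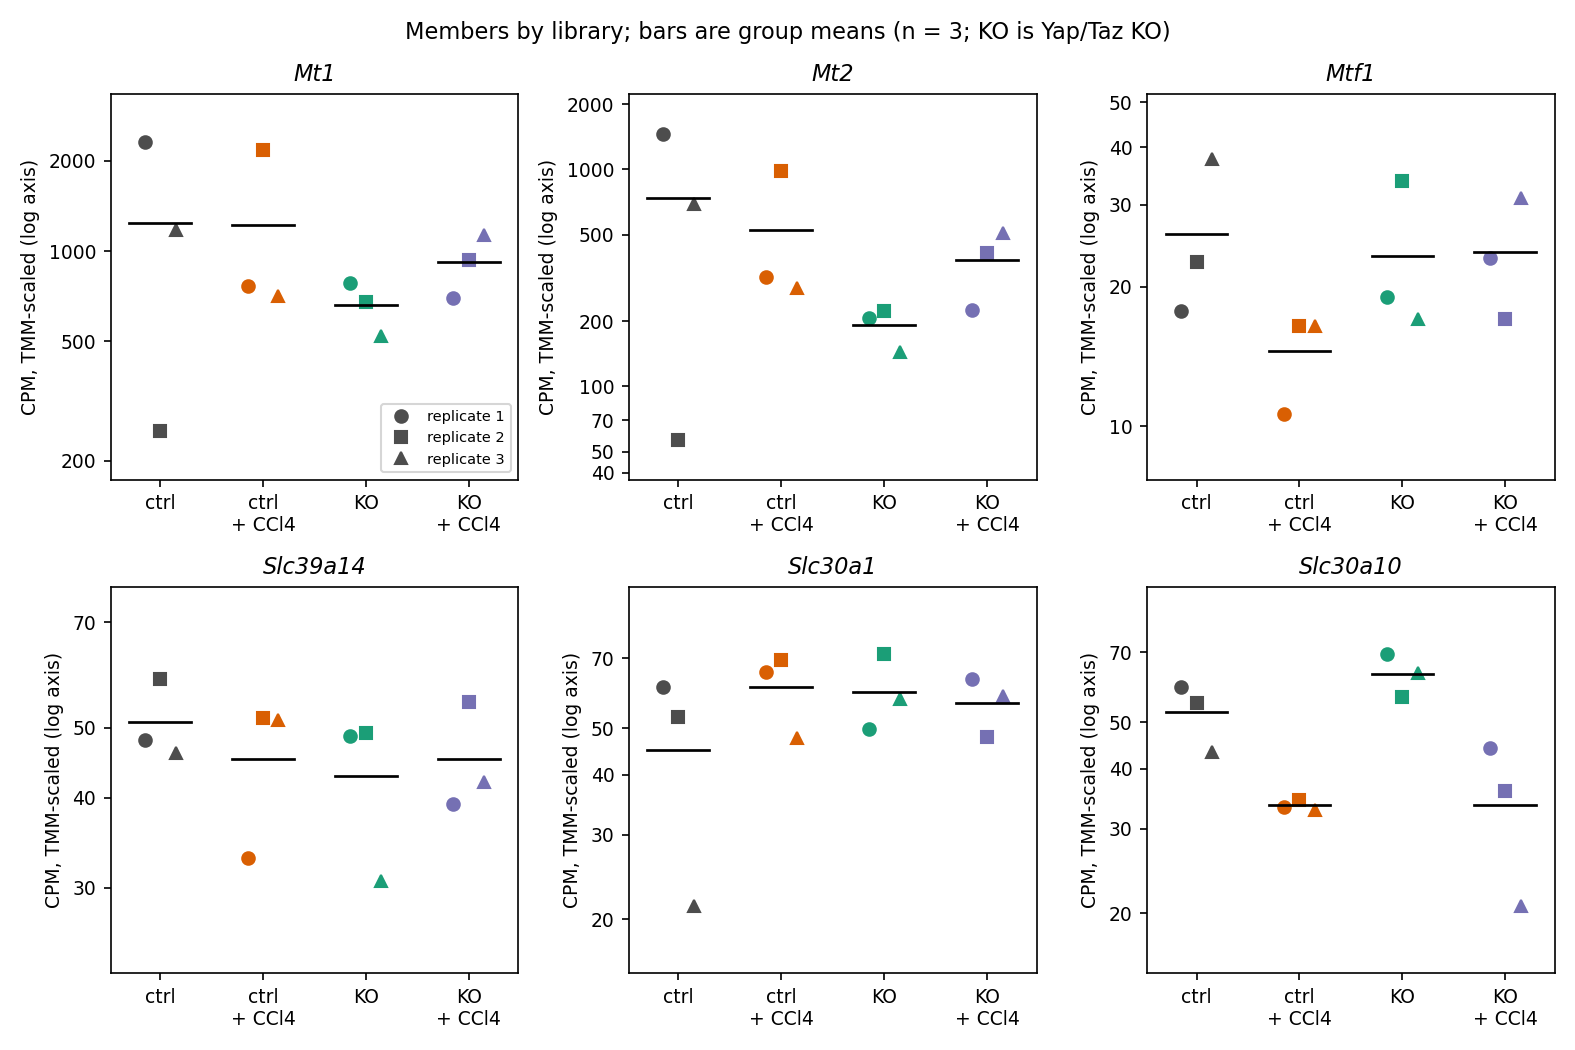
Each panel plots 1 gene, with the TMM-scaled CPM on a log axis and the 4 groups on the horizontal axis (KO is Yap/Taz KO); points are libraries, their shape is the replicate number and bars are group means (n = 3). Mt1 runs from 252 to 2304 CPM and Mt2 from 56.9 to 1463 CPM within ctrl, while Slc30a10 lies at 32.9 to 34.5 CPM in all 3 ctrl + CCl4 libraries.

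The SD of log2(CPM + 2) between libraries put this spread on a relative scale. For Mt1 it was 1.63 in ctrl, 0.90 in ctrl + CCl4, 0.29 in Yap/Taz KO and 0.35 in Yap/Taz KO + CCl4. For Mt2 it was 2.43, 0.98, 0.33 and 0.61 in the same order. The median over all 10780 tested genes was 0.47, 0.28, 0.34 and 0.27, so the metallothioneins lay far above it in both control groups, at or just below it in Yap/Taz KO, and above it again in Yap/Taz KO + CCl4. Pooled over groups, the SD of Mt1 exceeded that of 98.0% of tested genes and that of Mt2 exceeded 99.5%. Among the 1431 genes with a mean of at least 100 CPM these shares were 97.3% and 98.7%. A difference in spread between groups was not tested.

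**Figure D2:**
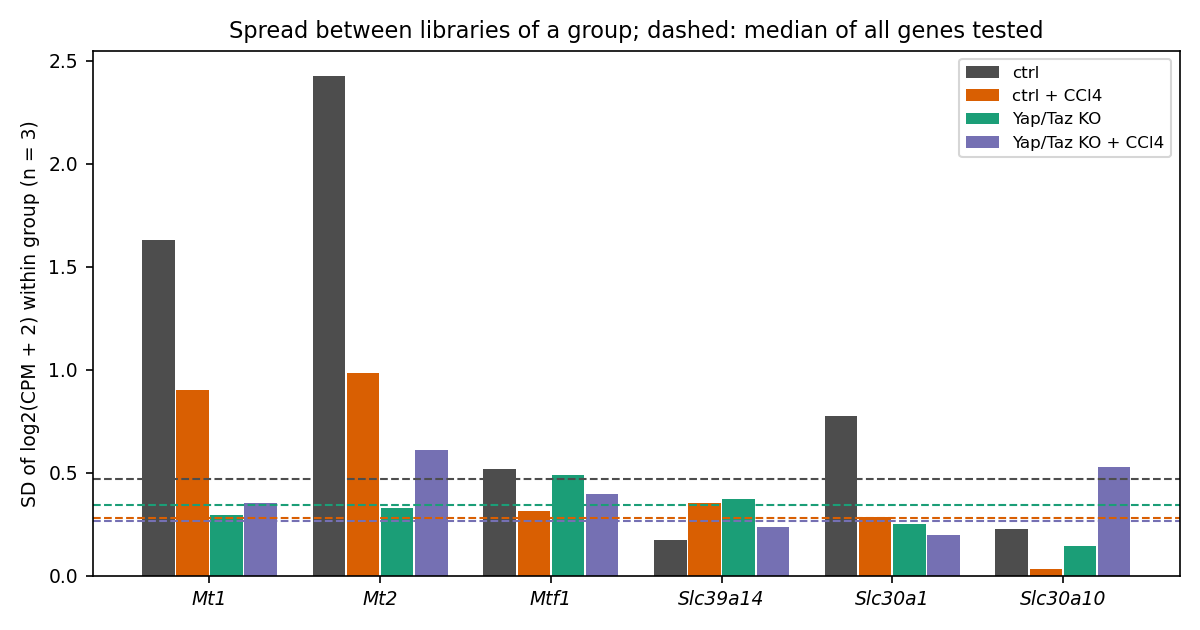
Bars give the SD of log2(CPM + 2) between the 3 libraries of each group for each gene, and dashed lines give the median of that SD over all tested genes in the group of the same colour. Mt1 and Mt2 reach 1.63 and 2.43 in ctrl and stay at 0.29 and 0.33 in Yap/Taz KO.

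The 2 metallothioneins rose and fell together from library to library. Over the 12 libraries, with each gene centred on its own mean, the root mean square difference in log2 CPM between Mt1 and Mt2 was 0.43, the smallest of 5406 genes searched for either. Mt2 had the wider swing: the count of Mt1 per count of Mt2 was 4.42 in ctrl replicate 2, the library with the lowest level of both, and 1.57 in ctrl replicate 1, the library with the highest. This ratio was 3.76, 3.05 and 3.60 in Yap/Taz KO and 3.09, 2.26 and 2.22 in Yap/Taz KO + CCl4, and in ctrl + CCl4 it was 2.39, 2.22 and 2.50. Next in likeness to both was Socs3, the feedback inhibitor of cytokine signalling through STAT3, with a difference of 0.49 from Mt1 and 0.81 from Mt2. Socs3 was at 147, 40.3 and 73.2 CPM in the ctrl libraries, in the same order as Mt1, and at 96.3, 101 and 80.9 CPM in ctrl + CCl4. In Yap/Taz KO it was at 50.9, 73.8 and 54.5 CPM, lowest in the library highest in Mt1. The third were Rras, a small GTPase, for Mt1 (0.52) and Crlf2, a cytokine receptor subunit, for Mt2 (0.82). These likenesses describe 12 libraries of different depth and cell content, which all the genes share.

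**Figure D3:**
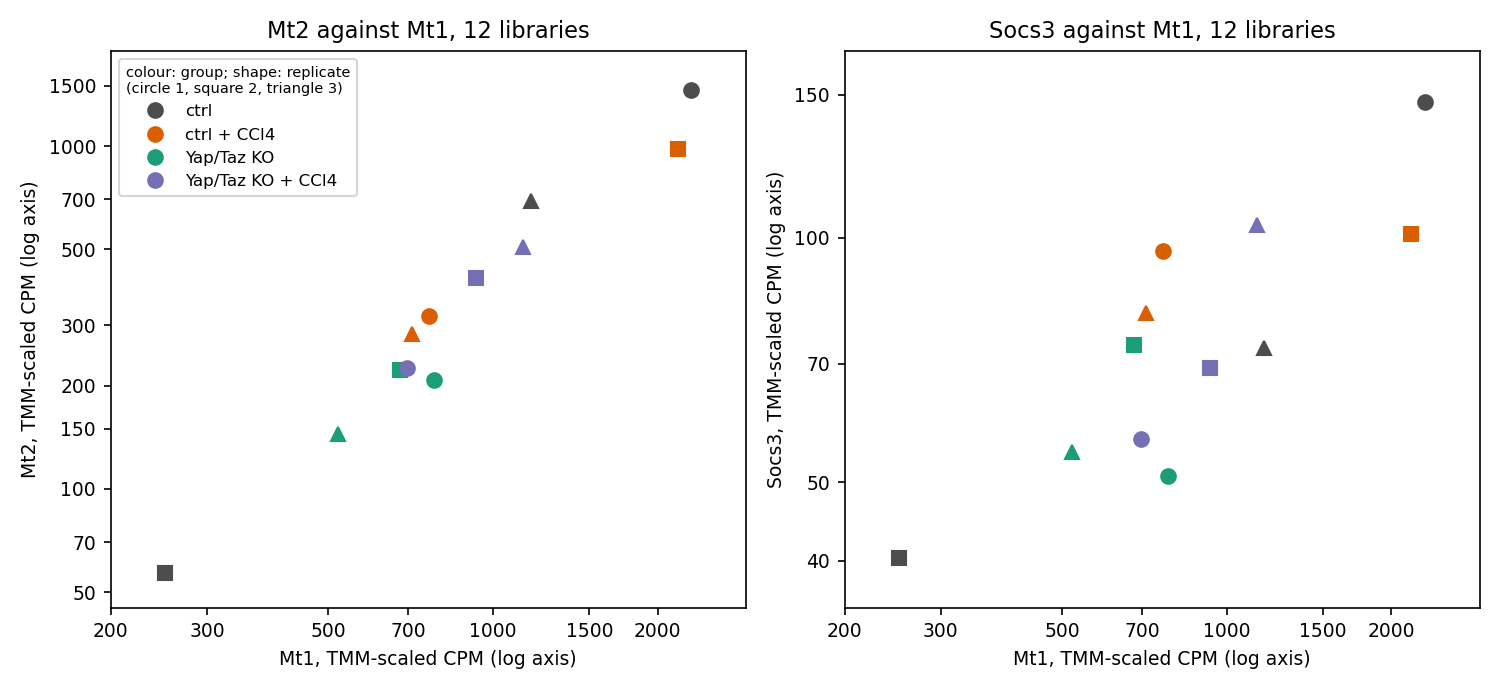
Each point is 1 of 12 libraries, with Mt1 on the horizontal axis and Mt2 (left) or Socs3 (right) on the vertical axis, both in TMM-scaled CPM on log axes; colour is the group and shape the replicate number. Mt2 follows Mt1 closely from the ctrl library at 252 CPM of Mt1 to the one at 2304 CPM, and Socs3 follows more loosely.

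Both metallothioneins had lower fitted levels in the uninjured knockout, by an amount that changed with single ctrl libraries and with the method. The fitted log2 fold change of Yap/Taz KO against ctrl was -0.91 for Mt1 (SE 0.570, 95% interval -2.13 to 0.30) and -1.95 for Mt2 (SE 0.750, interval -3.55 to -0.35), with overlapping groups for both. Without ctrl replicate 1, the library with raised erythroid and non-parenchymal markers, these values were -0.10 and -0.96. Without ctrl replicate 2 they were -1.39 and -2.49. Other ways of scaling, filtering and fitting gave -1.07 to -0.43 for Mt1 and -2.11 to -1.04 for Mt2. The edgeR fit called none of the 10780 genes in this comparison (0%), against 43 in DESeq2 and 210 in edgeR without the low-count filter, where Mt1 and Mt2 were among those called. Groups did not overlap for 10.7% of all genes and for none of the 6 genes here. The part of marker content in these values was not tested.

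After CCl4, the metallothioneins showed no common shift in control hepatocytes. The log2 fold change was -0.03 for Mt1 (SE 0.564, interval -1.23 to 1.17) and -0.49 for Mt2 (SE 0.723, interval -2.03 to 1.06), so either direction lies inside the intervals. Leaving out 1 library at a time moved Mt1 between -0.72 (without ctrl + CCl4 replicate 2) and 0.78 (without ctrl replicate 1), and Mt2 between -1.26 and 0.50 for the same libraries. Mt1 also turned positive with library totals, limma-voom or the replicate block and without ctrl + CCl4 replicate 1 or 3, and Mt2 with limma-voom. In the knockout, injured libraries had higher means, with 0.48 for Mt1 (SE 0.566) and 1.00 for Mt2 (SE 0.733, interval -0.57 to 2.56). All 3 injured knockout libraries lay above all 3 uninjured ones for Mt2, the closest pair being 222 and 225 CPM, while Mt1 overlapped. With library totals in place of TMM that gap was 172 to 240 CPM. Mt1 did not overlap with library totals either, at 484 to 630 CPM uninjured and 741 to 1243 CPM injured. Between the injured groups the values were -0.40 for Mt1 and -0.46 for Mt2, and both turned positive, at 0.30 and 0.32, without ctrl + CCl4 replicate 2. The difference between the injury responses of the genotypes was 1.48 for Mt2 (SE 1.03, interval -0.71 to 3.68) and 0.51 for Mt1 (SE 0.799, interval -1.20 to 2.22), and the latter was -0.30 without ctrl replicate 1.

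Mtf1, the zinc sensor, had a low level, with 29 to 99 counts per library. It was at 17.7, 22.6 and 37.7 CPM in ctrl, at 10.6, 16.5 and 16.4 CPM in ctrl + CCl4, at 18.95, 33.8 and 17.0 CPM in Yap/Taz KO and at 23.0, 17.1 and 31.1 CPM in Yap/Taz KO + CCl4. The ctrl + CCl4 group was the lowest and did not overlap with ctrl or with Yap/Taz KO + CCl4, although the closest values were 17.7 and 17.1 against 16.5 CPM. Its log2 fold change was -0.82 after injury in ctrl (SE 0.375) and 0.70 between the injured groups (SE 0.367), with intervals of -1.62 to -0.02 and -0.08 to 1.49. With library totals, the ctrl + CCl4 values ran from 12.6 to 21.4 CPM and overlapped with both groups, which began at 16.8 and 18.5 CPM. In the knockout, Mtf1 differed by 0.03 between injured and uninjured libraries (SE 0.365).

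Slc39a14, the importer, was the flattest gene of the set. It was at 48.1, 58.4 and 46.2 CPM in ctrl, at 33.0, 51.6 and 51.2 CPM in ctrl + CCl4, at 48.7, 49.2 and 30.7 CPM in Yap/Taz KO and at 39.1, 54.3 and 42.1 CPM in Yap/Taz KO + CCl4. All groups overlapped, and the 4 pairwise log2 fold changes lay between -0.25 and 0.08. Their 95% intervals ran from -0.81 at the lowest to 0.63 at the highest. With library totals the values after injury were 0.20 in ctrl and 0.47 in the knockout.

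Slc30a1, the plasma membrane zinc exporter, was lowest in 1 ctrl library. It was at 60.9, 52.8 and 21.3 CPM in ctrl, at 65.6, 69.6 and 47.7 CPM in ctrl + CCl4, at 49.8, 71.4 and 57.5 CPM in Yap/Taz KO and at 63.4, 48.0 and 58.4 CPM in Yap/Taz KO + CCl4. The value of 21.3 CPM belonged to ctrl replicate 3, the shallowest library, and the other 11 lay between 47.7 and 71.4 CPM. The log2 fold changes of 0.42 after injury in ctrl (SE 0.313) and 0.39 in the uninjured knockout (SE 0.315) fell to 0.10 and 0.07 without that library. In the ctrl libraries highest and lowest in metallothioneins, Slc30a1 stood at 60.9 and 52.8 CPM.

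Slc30a10, the manganese exporter, was lower in injured than in uninjured hepatocytes of both genotypes. It was at 59.2, 54.9 and 43.4 CPM in ctrl, at 33.3, 34.5 and 32.9 CPM in ctrl + CCl4, at 69.3, 56.5 and 63.5 CPM in Yap/Taz KO and at 44.2, 36.0 and 20.7 CPM in Yap/Taz KO + CCl4. Injured and uninjured libraries did not overlap within either genotype. The log2 fold change was -0.91 in the knockout (SE 0.259, interval -1.46 to -0.35), and -0.65 in ctrl (SE 0.261, interval -1.21 to -0.09). The difference between these responses was -0.26 (interval -1.04 to 0.53). With library totals the 2 log2 fold changes were -0.54 and -0.28, Slc30a10 was not among the genes called in the knockout, and both pairs of groups overlapped. It was called in the knockout with TMM, but not without Yap/Taz KO replicate 1, without Yap/Taz KO replicate 3 and without Yap/Taz KO + CCl4 replicate 2 or replicate 3, with values of -0.84, -0.90, -0.96 and -0.66. The hepatocyte marker sum moved the same way, from 115010 to 142300 CPM in uninjured knockout libraries and from 71374 to 88614 CPM in injured ones. Its part in the level of Slc30a10 was not tested. As Slc30a10 was chosen with these values known, nothing is read from its calls.

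**Figure D4:**
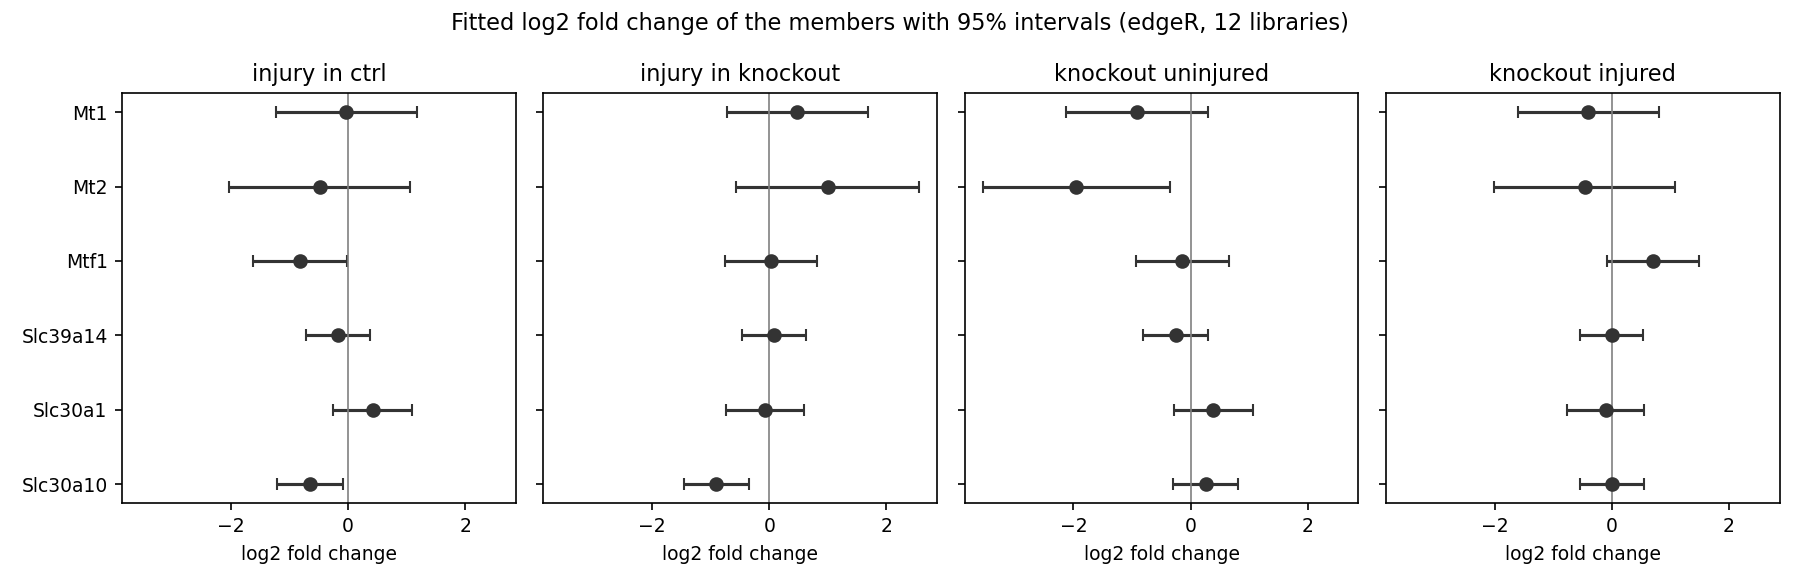
Points give the log2 fold change of each gene in 4 comparisons, fitted with edgeR over 12 libraries, and bars give 95% intervals. Intervals of Mt1 and Mt2 are the widest, at -3.55 to -0.35 for Mt2 in the uninjured knockout. For Slc30a10 after injury they run from -1.21 to -0.09 in ctrl and from -1.46 to -0.35 in the knockout. The genes were chosen with these values known, so the intervals describe the fit and are not a test.

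Across the 10780 genes, edgeR's quasi-likelihood test with Benjamini-Hochberg adjustment at 0.05 called 22.5% after injury in ctrl and 17.8% after injury in the knockout. Of the 6 genes, 0 were among those called in ctrl and 1, Slc30a10, in the knockout, and since the genes were chosen with these values known, nothing is read from the count. Groups did not overlap for 36.7% and 39.4% of all genes and for 2 of the 6 in each comparison, which were Mtf1 and Slc30a10 in ctrl and Mt2 and Slc30a10 in the knockout. Between the injured groups 0% of genes were called, groups did not overlap for 16.3% of all genes, and Mtf1 was the 1 of 6 without overlap. The difference between injury responses gave 0% as well. For the uninjured knockout, the injured knockout and that difference, edgeR gave 0 calls with 1020, 613 and 874 genes at an unadjusted p under 0.05, and DESeq2 gave 43, 17 and 12 calls. The median log2 fold change of the 6 genes was -0.33 after injury in ctrl and 0.05 in the knockout, against 0.03 in each for all genes. In the uninjured and injured knockout comparisons it was -0.20 and -0.05, against -0.03 and -0.01. As these comparisons share groups, their values stand side by side and are not independent.

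The zinc transporters outside the set that were called after injury included rises and falls. Of 21 listed genes of the SLC30 exporter and SLC39 importer families outside the set, 17 were tested, and 3 rose and 2 fell in ctrl while 0 rose and 2 fell in the knockout. In either direction, 22.5% and 17.8% of all tested genes were called, so nothing particular to these families is read from the counts. Slc39a2 was the one that fell in both genotypes. It held 1.65, 10.6 and 13.5 CPM in ctrl and 0.610 to 1.61 CPM in ctrl + CCl4, a log2 fold change of -3.02 (SE 0.781, adjusted p = 0.0121, edgeR). In the knockout it went from 5.31 to 8.12 CPM in uninjured libraries to 0.316 to 0.947 CPM in injured ones, a change of -3.41 (SE 0.817, adjusted p = 0.00963, edgeR), on 45 against 6 counts in all.

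Slc39a4, the importer known for zinc uptake in the intestine, fell in the knockout from 171 to 179 CPM to 81.5 to 89.2 CPM. Its log2 fold change was -1.04 (SE 0.233, adjusted p = 0.00667, edgeR), and in ctrl it was -0.60 (adjusted p = 0.0797), a difference with an adjusted p of 0.743. Slc39a8, an importer of manganese and zinc related to ZIP14, fell in ctrl by 1.01 on the log2 scale (SE 0.315, adjusted p = 0.0320, edgeR). Slc39a10 rose there from 0.711 to 6.17 CPM to 11.4 to 14.8 CPM, by 1.81 (SE 0.554, adjusted p = 0.0286, edgeR). Slc39a6, its close relative, rose by 2.25 (SE 0.764, adjusted p = 0.0461, edgeR) from 0, 2.84 and 8.64 CPM to 16.8 to 22.9 CPM.

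Slc30a3, a vesicular zinc transporter best known from neurons, was nearly silent in uninjured controls, with 1 count over the 3 ctrl libraries and 37, 90 and 25 counts in the ctrl + CCl4 libraries. The ratio per TMM-scaled library size was 97.2, with a 95% counting interval of 17.2 to 3863, and the change was called (adjusted p = 0.000350, edgeR). Knockout libraries held 3, 2 and 11 counts uninjured and 29, 23 and 17 counts injured, a ratio of 2.84 (counting interval 1.63 to 5.24, adjusted p = 0.130, edgeR). The difference between the genotypes did not pass the test (adjusted p = 0.533). Injured ctrl libraries also held more macrophage and cholangiocyte marker signal, at 2305 to 4009 and 381 to 459 CPM against 441 to 2426 and 41.2 to 67.5 CPM in ctrl. Most of the cholangiocyte sum in injured ctrl libraries was Spp1, at 345, 291 and 416 CPM, a gene that macrophages also express. The part of those cells in the changes of low zinc transporter genes was not tested. The 4 calls among SLC39 genes in ctrl were reduced to 1 without ctrl replicate 2, ctrl replicate 3 or ctrl + CCl4 replicate 1, to 2 without ctrl + CCl4 replicate 3 and to 0 without ctrl + CCl4 replicate 2. The fit of the 6 samples compared left none there. The 2 in the knockout were reduced to 1 without Yap/Taz KO + CCl4 replicate 2, and library totals or leaving out ctrl replicate 3 gave 4.

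**Figure D5:**
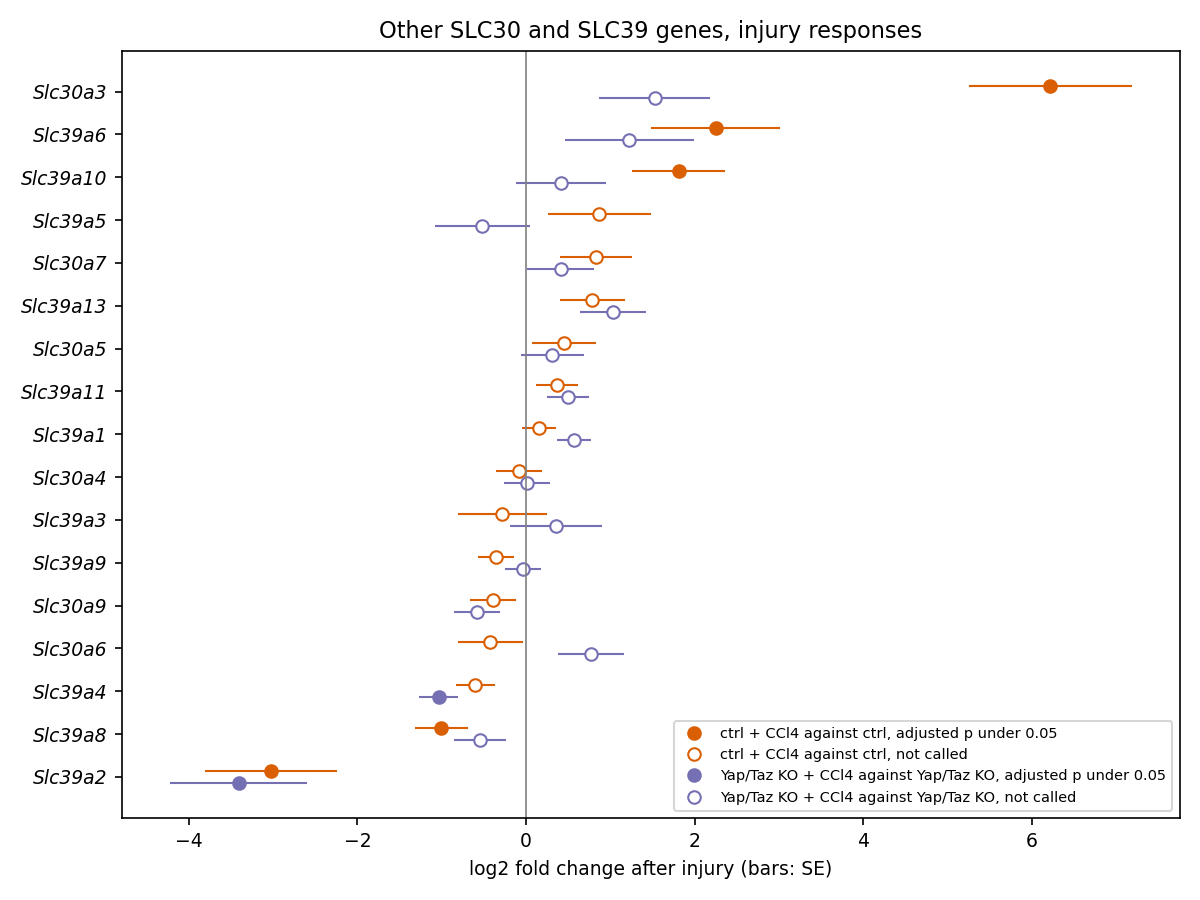
Points give the log2 fold change after injury of the 17 tested SLC30 and SLC39 genes outside the set, in ctrl and in the knockout, with bars of 1 SE; filled points passed an adjusted p of 0.05 (edgeR). Slc39a2 is filled in both genotypes at -3.02 and -3.41, and the fitted value of Slc30a3 in ctrl rests on 1 count in uninjured libraries.

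No transporter of these families was called by edgeR in either knockout comparison or in the difference between injury responses, as held for all genes. The remaining metallothioneins, Mt3 and Mt4, held 0 and 2 counts over all libraries. Of 5 further genes listed as MTF1 targets, Csrp1, a LIM domain protein, and Slc39a10 rose after injury in ctrl and Csrp1 in the knockout. After injury, 22.5% of all tested genes were called in ctrl and 17.8% in the knockout, in either direction. Csrp1 went from 5.54 to 21.0 CPM to 36.3 to 46.5 CPM in ctrl, by 1.64 (SE 0.450, adjusted p = 0.0168, edgeR), and by 2.42 in the knockout (SE 0.479, adjusted p = 0.00295, edgeR). The 2 calls in ctrl fell to 0 without ctrl replicate 2 or ctrl + CCl4 replicate 1, and to 1 without ctrl replicate 3, ctrl + CCl4 replicate 2 or ctrl + CCl4 replicate 3.

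Copper and manganese genes that were called all fell. Of 13 genes of copper handling, 4 fell in ctrl and 2 in the knockout. Calls in either direction covered 22.5% and 17.8% of all tested genes. Falls were 1290 of the 2427 calls in ctrl and 900 of the 1916 in the knockout. The copper list was chosen with earlier results known, so nothing is read from these counts or their direction. Ccs, the copper chaperone of superoxide dismutase, fell by 1.12 (SE 0.214, adjusted p = 0.00169, edgeR) and by 0.88 on the log2 scale (adjusted p = 0.00996, edgeR). Sod1, the enzyme it loads, fell by 1.08 (adjusted p = 0.00196, edgeR) and 0.92 (adjusted p = 0.00750, edgeR). The copper importer Slc31a1 (adjusted p = 0.00940, edgeR) and the copper pump Atp7b (adjusted p = 0.0347, edgeR) fell in ctrl. The hepatocyte marker sum lay between 100410 and 138430 CPM in ctrl and between 48484 and 64960 CPM in ctrl + CCl4. It includes Alb and Tat, which also belong to the zinc-binding and glucocorticoid lists below. The part of this sum in the falls of this and the next 3 gene groups was not tested. Both knockout calls were lost with library totals, and 1 was lost without Yap/Taz KO + CCl4 replicate 1.

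Of 6 genes of manganese handling besides Slc30a10, 3 fell in ctrl and 1 in the knockout. Over all tested genes, 22.5% were called in ctrl and 17.8% in the knockout, in either direction. The list was chosen with earlier results known, so nothing is read from these counts or their direction. Sod2, the manganese superoxide dismutase of mitochondria, fell by 1.35 in ctrl (SE 0.233, adjusted p = 0.000811, edgeR) and by 0.80 in the knockout (SE 0.230, adjusted p = 0.0261, edgeR). Arg1, a manganese enzyme of the urea cycle, fell by 1.41 in ctrl (SE 0.353, adjusted p = 0.00996, edgeR), and Slc39a8 was the third. In ctrl 1 call was left without ctrl replicate 3. The knockout call was lost with library totals, without Yap/Taz KO replicate 2 or 3 and without Yap/Taz KO + CCl4 replicate 1 or 2.

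Among 6 tested zinc-binding plasma and storage proteins, 4 fell in each genotype and none rose. In either direction, 22.5% of all tested genes were called in ctrl and 17.8% in the knockout. Falls made up 1290 of those 2427 calls in ctrl and 900 of 1916 in the knockout. The list was chosen with earlier results known, so nothing is read from these counts. Hrg, a plasma glycoprotein that binds zinc, fell by 2.01 in ctrl (SE 0.280, adjusted p = 0.000155, edgeR) and 1.16 in the knockout (SE 0.274, adjusted p = 0.00905, edgeR). The carbonic anhydrases Car3 and Car14, zinc enzymes, fell in both, with log2 fold changes of -3.22 and -2.54 in ctrl and of -2.45 and -1.84 in the knockout (adjusted p from 0.00103 to 0.00955, edgeR). Alb, the main zinc carrier of plasma and a defining hepatocyte marker, fell by 0.97 in ctrl (adjusted p = 0.0103, edgeR) and by 0.82 in the knockout (adjusted p = 0.0311, edgeR).

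Among genes responsive to the other known inducers of metallothionein, those of glucocorticoids that were called fell and most of those of inflammation that were called rose. Of 11 tested glucocorticoid responsive genes, 4 fell in each genotype and none rose. Calls in either direction took in 22.5% of all tested genes in ctrl and 17.8% in the knockout. Falls were 1290 of those 2427 calls in ctrl and 900 of 1916 in the knockout. As the list was chosen with earlier results known, nothing is read from these counts. Tdo2, of tryptophan breakdown, changed by -2.95 in ctrl (SE 0.364, adjusted p = 5.37e-05, edgeR) and by -2.35 in the knockout (SE 0.355, adjusted p = 0.000412, edgeR). Pck1, of gluconeogenesis, changed by -3.33 and -1.85, and Tsc22d3, a glucocorticoid target, by -1.79 and -1.46. Tat was the fourth in ctrl and Nr3c1, the glucocorticoid receptor, in the knockout, where it fell by 0.66 (adjusted p = 0.0227, edgeR). The mean log2 CPM of this list was 7.57, 6.86 and 7.58 in the ctrl libraries and 5.99, 6.05 and 6.23 in the ctrl + CCl4 libraries. A relation of this list to metallothionein levels was not tested.

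Of 19 acute phase genes downstream of interleukin-6 and STAT3, 7 rose and 1 fell in ctrl, and 8 rose and 1 fell in the knockout. Among all tested genes, 22.5% were called in ctrl and 17.8% in the knockout, in either direction. Rises were 1137 of those 2427 calls in ctrl and 1016 of 1916 in the knockout. This list too was chosen with earlier results known, so nothing is read from its counts. Lcn2, an iron-sequestering protein, went from 22.2 to 38.4 CPM to 562 to 629 CPM in ctrl, by 4.22 (SE 0.284, adjusted p = 5.2e-07, edgeR), and by 5.00 in the knockout (SE 0.295, adjusted p = 3.43e-07, edgeR). The serum amyloid gene Saa1 rose by 4.34 and 4.81 and Saa2 by 4.48 and 4.85. The gene that fell in each was Lbp, by 1.22 in both. The list's mean log2 CPM lay between 8.02 and 8.08 in all 3 ctrl libraries and between 9.13 and 9.28 in ctrl + CCl4. Its relation to metallothionein levels was not tested. Socs3, the gene of this list nearest to the metallothioneins, had a log2 fold change of 0.09 in ctrl (SE 0.364, adjusted p = 0.895, edgeR) and 0.35 in the knockout (SE 0.368, adjusted p = 0.560, edgeR).

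The genes nearest in pattern to the other members, by the same root mean square difference over 12 libraries, included Nf2 and Stk38 for Slc30a1 (0.18 and 0.21). For Slc30a10 they were Marf1, Zfp652 and Tut7 (0.21, 0.22 and 0.23). For Slc39a14 they were Sde2, Tab2 and Syngr2 (0.16, 0.16 and 0.18), and for Mtf1, among 7241 genes searched, Echdc2, Ndufc1 and Mvb12a (0.24 each). Marf1 shared with Slc30a10 the lower level after injury, at 25.6 to 30.8 CPM in ctrl + CCl4 against 31.3 to 43.3 CPM in ctrl. Nf2, Stk38 and Slc30a1 each had their lowest level in ctrl replicate 3, the shallowest library, at 7.82, 29.9 and 21.3 CPM. The part of that library in their likeness was not tested.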

How the data were processed

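The authors deposited 1 table of whole-number read counts by gene symbol, unscaled, as its values show. Libraries came from polyA RNA by Lexogen's QuantSeq 3' FWD kit, per the labels' protocols. The submitters' processing notes name FastQC, cutadapt, STAR 2.6.1d, mm10 and GRCm38. The sources used here give no counter, strand setting or annotation. Positions are from GENCODE M21 (98.17% of symbols matched) and promoters from RefSeq (5 of the 6 genes matched).

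Counts were fitted with edgeR 4.0.16 in R 4.3.3, with filterByExpr (minimum count 10, minimum total 15), TMM factors of 0.776 to 1.312 and 1 coefficient per group over 12 samples. Quasi-likelihood F tests were adjusted by Benjamini-Hochberg over 10780 genes at 0.05, and steps were tested on simulated data. Chi-square per degree of freedom was 8.56 to 26.6 between libraries of a group, so none duplicated another of its group. Pairs across groups were not compared. The members and gene lists were chosen with earlier results of these data known. Genes were named as members, as the up to 3 called genes of a list with the smallest adjusted p, as the 3 genes nearest a member in pattern (mean of at least 20 CPM, or less for a low member), or as label checks (Yap1, Wwtr1). A gene near Slc30a1 in pattern is not reported here. Slc39a6, Atp7b, Tat, Nr3c1, Lbp and Alb were named after their values were seen. Alternatives were RLE factors, library totals, no filter on low counts, DESeq2 1.42.0, limma-voom (limma 3.58.1), a replicate block, fitting only the 6 samples of a comparison, and omitting single libraries.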

Additional observations from a re-analysis of the deposited data

How the results depend on the processing

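The fold change of Slc30a10 after injury kept its sign in both genotypes under the 19 alternatives run. For genes outside the 6, only counts of calls were recomputed. Precision was limited by 3 libraries per group and, for Mtf1, by 29 to 99 counts per library. Of the fold changes of the 6 genes under the alternatives, 550 kept their side of the threshold, 6 passed it and 5 lost it, and 3 values without a call moved by more than the spread.

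Without the low-count filter the genes called were 210 for the uninjured knockout, 109 for the injured knockout and 115 for the difference between injury responses, and DESeq2 gave 43, 17 and 12, against 0 each in edgeR. Fitting the 6 samples compared gave 5 for the injured knockout. Leaving out 1 library gave 1176 to 2331 calls for injury in the knockout, the lowest without Yap/Taz KO + CCl4 replicate 1, 0 to 1 for the uninjured knockout and 0 to 3 for the injured knockout. Library totals called 1974 genes higher and 698 lower after injury in ctrl, against 1137 and 1290 with TMM, and 1814 higher and 406 lower in the knockout, against 1016 and 900.

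Library totals moved Slc39a14 to 0.20 after injury in ctrl and to 0.47 in the knockout, and moved Slc30a10 to -0.28 and to -0.54, the latter losing its call. Leaving out 1 library gave Slc30a10 -0.76 to -0.55 after injury in ctrl, called without Yap/Taz KO + CCl4 replicate 3, and -1.14 to -0.66 in the knockout, where 14 of 19 alternatives kept the call. Mt2 after injury in the knockout was called without the filter, at 1.01, and with the 6 samples, at 1.01. Without the filter Mt1 and Mt2 in the uninjured knockout, at -0.89 and -1.93, and Mt2 in the difference between injury responses, at 1.48, were called too. The causes were not tested. As the genes were chosen with these values known, neither a kept nor a lost call is read as support.

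Same-numbered libraries of different groups correlated in their deviations at -0.16 to 0.34, with 7 of 18 pairs above 0.1. Libraries with other numbers correlated at -0.36 to 0.29, with 6 of 36 pairs above 0.1. These ranges overlap and do not settle whether the numbers pair the samples. A replicate block gave 2594 calls after injury in ctrl and 2095 in the knockout, and 0 in each other comparison, and Slc30a10 after injury in the knockout kept its call at -0.95.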
